A study of Homo sapiens with 4 samples.

Results

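RP11-596C23.6 and RP11-160E2.6 are 2 of the 18276 genes counted in RNA pulled down with an SF3B6 antibody and in its input. Both are annotated as long non-coding RNA (lncRNA), a class of 3086 rows here, 1949 of which carry a clone name in place of a gene name. They were chosen by symbol because earlier results of these data showed them to be abundant and higher in the immunoprecipitate (IP) than in input. Their IP and input values are therefore given as a description, without a test.

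The RNA came from MDA-MB-231, a triple-negative human breast cancer line, in 2 SF3B6 IP libraries and 2 Input libraries called biological replicates by the series. All cells were crosslinked by irradiation at 400 mJ/cm2 and their lysate was digested with micrococcal nuclease, and the IP used 5 ug of SF3B6 antibody. The line is taken from the titles, because the samples' separate entries for it end in different digits. Whether the replicates came from separate cultures is not stated further. Input was the one control analysed here, so RNA that sticks to beads or antibody is not separated from RNA that SF3B6 contacts.

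A clone name such as RP11-596C23.6 gives the bacterial artificial chromosome of the RP11 human library on which the gene was annotated, followed by a running number. Such names mark transcripts found in genome annotation for which no function had been named. Many lncRNAs are spliced and polyadenylated like messengers, and some overlap or host short structured RNAs. SF3B6 is a subunit of SF3b, a complex within the U2 particle of the spliceosome, which recognises the branch point of introns. The comparators used below are RN7SL1 and RN7SL3, genes of 7SL, the RNA scaffold of the signal recognition particle that directs secretory proteins to the endoplasmic reticulum. SNORD3A encodes U3, a small nucleolar RNA of ribosomal RNA processing. MALAT1 and NEAT1 are nuclear lncRNAs, of speckles and paraspeckles.

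The deposited table places RP11-596C23.6 (ENSG00000282885.2) on chromosome 14 and RP11-160E2.6 (ENSG00000262202.4) on chromosome 17, and gives neither start nor end. Neither symbol matched the RefSeq gene table or its sequence tables, so no sequence of the pair is shown. The length that the authors used can be recovered, because FPKM is the count divided by gene length and a library total. It was 2034 nucleotides for RP11-596C23.6 and 637 for RP11-160E2.6 in all 4 libraries. The same calculation gave 299 for RN7SL3, the length that RefSeq lists for it, with the scale set by the RefSeq length of RN7SL1. For the U3 genes it gave 699 (SNORD3A), 758 (SNORD3B-1), 791 (SNORD3B-2) and 581 (SNORD3C), where RefSeq lists 217 for each, so the authors' gene models are longer than RefSeq's there. Chromosome 14 of GRCh38.p14 also holds RN7SL1 (49586580 to 49586878), RN7SL3 (49853616 to 49853914) and RN7SL2 (49862551 to 49862849). Chromosome 17 also holds the U3 genes SNORD3A (19188016 to 19188232) and SNORD3C (19190029 to 19190245). It further holds SNORD3B-1 (19061912 to 19062128), SNORD3B-2 (19063920 to 19064136) and SNORD3D (19112420 to 19112636). SNORD3D had no row under its symbol among the genes counted, so it could not be used as a comparator. Whether the annotated interval of either lncRNA overlaps any gene listed here with its position was not analysed.

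The libraries differed in depth, with 55492 counts in genes in IP 1 and 30431 in IP 2, against 317190 in Input 1 and 519836 in Input 2. A count of 0 allowed a share of up to 0.00541% and 0.00986% in IP and of 0.000946% and 0.000577% in Input (3 counts), and this limit, like the intervals below, covers counting error only. All 7 markers of the line (VIM, CD44, KRT8, KRT18, EGFR, AXL and CAV1) had counts in IP and in Input. Of the 6 genes that should be low or absent in it, ESR1 and PGR had no count, and the 6 summed to 162 and 131 CPM (counts scaled to a total of 1e+06) in IP, against 262 and 325 CPM in Input, mostly those of ERBB2. No count fell on the 5 blood and liver markers.

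RP11-596C23.6 was the most counted lncRNA in every library. It had 2839 and 2767 counts in the IP libraries, against 7666 and 8044 in the Input libraries. These were 5.12% (95% Wilson interval 4.94 to 5.30) and 9.09% (8.77 to 9.42) of IP 1 and IP 2, and 2.42% (2.36 to 2.47) and 1.55% (1.51 to 1.58) of Input 1 and Input 2. Both IP shares lay above both Input shares. Such an order, on normalised CPM, was found in 20.9% of the 3668 genes tested, and nothing is read from it for a gene chosen in this contrast. The mean share was 7.10 ± 2.81% in IP and 1.98 ± 0.61% in Input (SD, n = 2 each), a ratio of 3.58. Over the 4 pairings of an IP with an Input library the ratio ran from 2.12 to 5.88. By counts it ranked 2 among all genes in IP 1, IP 2 and Input 1, behind RN7SL1 in each, and 3 in Input 2, behind PLEC and RN7SL1.

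RP11-160E2.6 was scarcer and further apart between IP and Input. It had 128 and 202 counts in the IP libraries, against 117 and 186 in the Input libraries, although the IP libraries were much shallower. Of 6363 genes with at least 20 counts in all, 195 of them lncRNAs, 8 had more counts in the pooled IP than in the pooled Input libraries. RP11-160E2.6 was the one lncRNA among the 8, and nothing is read from this for a gene chosen in this contrast. Its share was 0.231% (95% Wilson interval 0.194 to 0.274) in IP 1 and 0.664% (0.579 to 0.761) in IP 2, against 0.0369% (0.0308 to 0.0442) in Input 1 and 0.0358% (0.0310 to 0.0413) in Input 2. The 2 Input intervals overlap and the 2 IP intervals do not. Both IP values lie above both Input values, from which nothing is read for the same reason. The mean share was 0.447 ± 0.306% in IP and 0.0363 ± 0.0008% in Input (SD, n = 2 each), a ratio of 12.3, with pairings from 6.25 to 18.6. Its rank among all genes by count was 32 and 11 in IP, against 346 and 383 in Input.

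**Figure D1:**
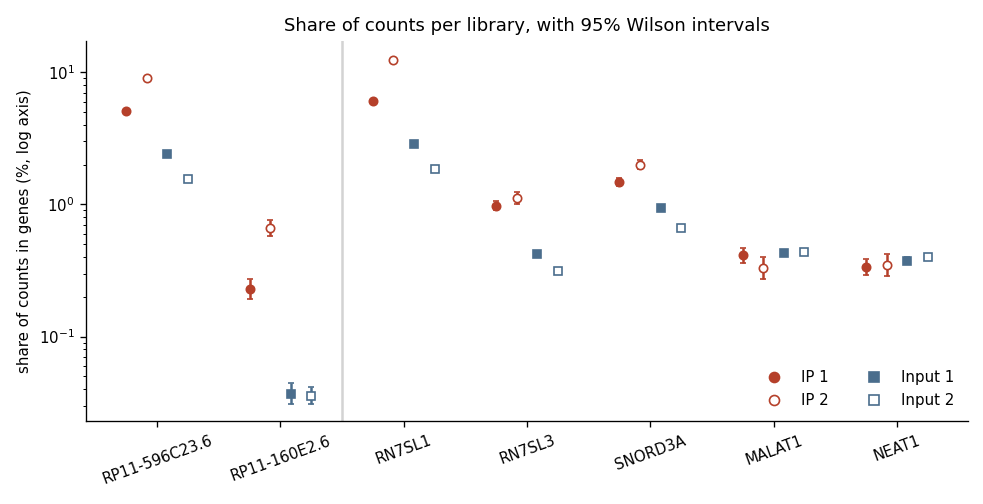
Share of all counts in genes (%, log axis) in IP 1, IP 2 (circles) and Input 1, Input 2 (squares) for the 2 clone-named lncRNAs and 5 comparators; bars are 95% Wilson intervals, which cover counting error only. RP11-596C23.6 is at 5.12% and 9.09% in IP against 2.42% and 1.55% in Input, below RN7SL1 in each library. RP11-160E2.6 is at 0.231% and 0.664% in IP against 0.0369% and 0.0358% in Input, and MALAT1 and NEAT1 lie between 0.329% and 0.437% in all 4 libraries.

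Per length, the gap between the pair was smaller than in counts. RP11-596C23.6 had 1842 and 2714 FPKM in IP, against 1777 and 1553 FPKM in Input. RP11-160E2.6 had 265 and 633 FPKM in IP, against 86.6 and 115 FPKM in Input. On this scale RP11-596C23.6 ranked 1 among the lncRNAs in both IP libraries and 5 in both Inputs. MALAT1, which has more counts than RP11-160E2.6 in 3 of the 4 libraries, had 34.1 and 22.6 FPKM in IP and 72.8 and 101 FPKM in Input, below RP11-160E2.6 in every library. The FPKM ratio of IP to Input was 1.37 for RP11-596C23.6 and 4.46 for RP11-160E2.6, both smaller than the ratio of shares. The library total behind FPKM includes more than counts in genes, which made up 7.32% and 6.07% of it in IP, against 15.0% and 20.4% in Input.

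Both genes passed the filter on low counts. Normalised with TMM (factors that balance library composition), RP11-596C23.6 stood at 91540 ± 41052 CPM in IP and 21684 ± 7478 CPM in Input (SD, n = 2 each), a log2 fold change of 2.08 ± 0.34 (SE of edgeR's fit over all tested genes). RP11-160E2.6 stood at 5810 ± 4231 CPM in IP and 395 ± 22.99 CPM in Input, a log2 fold change of 3.79 ± 0.28. They ranked 53 and 11 of 3668 tested genes by fold change. The SE borrows its spread from all genes and is smaller than the scatter of each gene's own libraries. Without IP 2 the log2 fold changes were 1.43 and 2.75, so this library carries much of both values. Scaling moved all genes together. With the totals behind FPKM the median of tested genes was -1.65, against -0.06 with TMM, and RP11-596C23.6 was at 0.45 and RP11-160E2.6 at 2.14. Relative to that median they were 2.10 and 3.79 higher, against 2.14 and 3.85 with TMM.

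**Figure D2:**
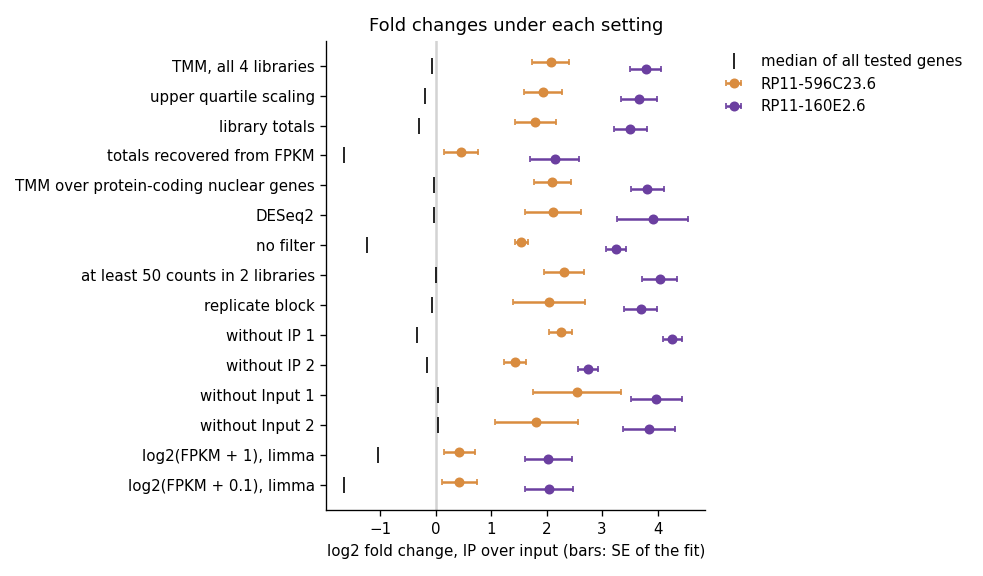
Log2 fold change of IP over Input (x axis) for RP11-596C23.6 and RP11-160E2.6 in each setting (rows), with the SE of the fit as bars and the median of all tested genes as a vertical tick. Both genes lie above 0 and above the median in all 15 settings. Nothing is read from this, since each setting refits the data in which the pair was chosen as higher in IP. RP11-596C23.6 runs from 0.43 to 2.55 and RP11-160E2.6 from 2.03 to 4.27, and the FPKM scales give the lowest values.

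RP11-596C23.6 kept nearly the same ratio to the summed counts of the 7SL rows in every library, but not to single 7SL genes. This ratio is formed within a library, so it needs no scaling between IP and Input. Against the sum of all 62 rows named RN7SL it was 0.656 (exact 95% interval 0.625 to 0.688) in IP 1 and 0.619 (0.590 to 0.649) in IP 2. In Input 1 it was 0.662 (0.643 to 0.682), and in Input 2 it was 0.641 (0.624 to 0.660). All 4 intervals overlap. The mean ratio was 0.637 ± 0.026 in IP and 0.652 ± 0.015 in Input (SD, n = 2 each), a difference within the spread of the libraries. Against RN7SL1 alone the ratio was 0.850 and 0.729 in IP, against 0.847 and 0.837 in Input. The IP 2 interval (0.694 to 0.766) lay below those of IP 1 (0.808 to 0.894), Input 1 (0.822 to 0.874) and Input 2 (0.813 to 0.863). Against RN7SL3 alone the ratio was 5.23 and 8.16 in IP, against 5.69 and 4.91 in Input. RN7SL3, a 7SL gene itself, had a less steady ratio to RN7SL1, at 0.163 in IP 1 and 0.0893 in IP 2, against 0.149 in Input 1 and 0.170 in Input 2.

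RN7SL1 was also the gene most like RP11-596C23.6 among 113 genes with at least 20 counts in each library. Likeness was the SD, over the 4 libraries, of the log2 ratio of the 2 genes' counts. It was 0.11 for RN7SL1, and 0.31 for RNU4-2, a U4 small nuclear RNA gene, which came next. RN7SL3 (0.33), RN7SL4P (0.35) and RN7SL5P (0.38), the last 2 named as 7SL pseudogenes, completed the first 5, and the median over the 113 was 1.28. Of the 5 closest rows 4 are named for 7SL, and no other row among the 113 is. RP11-596C23.6 was chosen as abundant and higher in IP, which favours likeness to other such rows. Nothing is therefore read from this count. The 4 libraries share depth and antibody differences across all genes, and how the authors' counting shared reads among similar sequences is not given. Whether reads of 7SL were counted under RP11-596C23.6 was not tested.

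RP11-160E2.6 had no neighbour as close. The 5 most like it were RNA5SP202, a 5S ribosomal RNA pseudogene (SD 0.69), the microRNA genes MIR3648-1 (0.76) and MIR3648-2 (0.79), and 2 rows of type miRNA listed by identifier only (0.71 and 0.82). The last 4 are all on chromosome 21, and the median over the 113 genes was 2.21. Its ratio to SNORD3A, the most counted U3 gene of chromosome 17, was 0.156 (exact 95% interval 0.128 to 0.188) in IP 1 and 0.331 (0.281 to 0.389) in IP 2. In Input 1 it was 0.0391 (0.0322 to 0.0470), and in Input 2 it was 0.0537 (0.0461 to 0.0622). The ratio was thus higher in IP by a mean of 5.25-fold, and higher in IP 2 than in IP 1. Unlike RP11-596C23.6 with the summed 7SL rows, RP11-160E2.6 did not hold a steady ratio to this comparator.

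**Figure D3:**
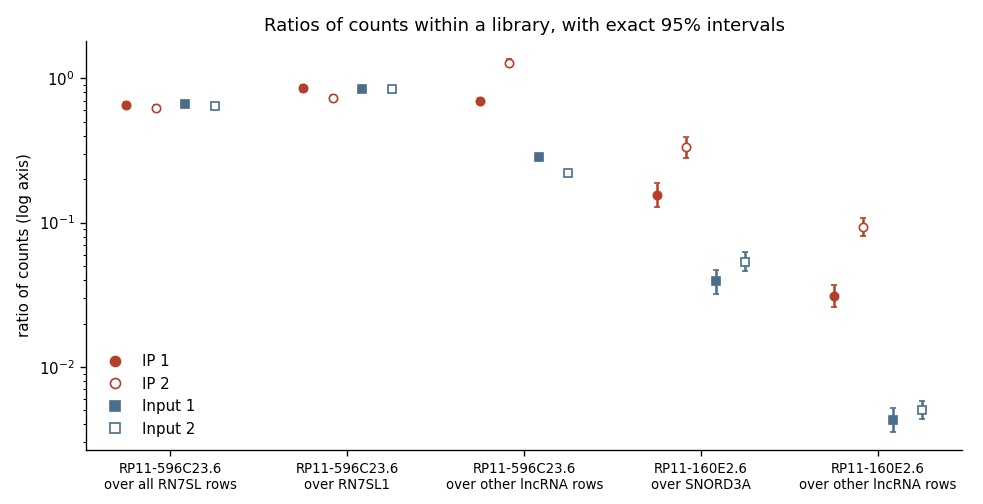
Ratios of counts within each library (log axis) for RP11-596C23.6 over all RN7SL rows, over RN7SL1 and over the other lncRNA rows, and for RP11-160E2.6 over SNORD3A and over the other lncRNA rows; bars are exact 95% intervals for counting error. The ratio to all RN7SL rows lies between 0.619 and 0.662 in all 4 libraries, while RP11-160E2.6 over SNORD3A is 0.156 and 0.331 in IP, against 0.0391 and 0.0537 in Input.

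The ratio between the pair also differed between libraries. RP11-596C23.6 had 22.2 times the counts of RP11-160E2.6 in IP 1 and 13.7 times in IP 2, against 65.5 times in Input 1 and 43.2 times in Input 2. The exact 95% intervals were 18.6 to 26.7 and 11.9 to 15.9 in IP, and 54.6 to 79.3 and 37.4 to 50.3 in Input. They cover counting error only and both genes were chosen in this contrast, so nothing is read from the gap between the groups.

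The libraries of one group can be compared too, but not independently of the contrast that chose the pair. A gene high in 1 IP library is more likely to be picked as higher in IP. The ratios and ranks below are therefore a description. IP 2 over IP 1, the share of RP11-160E2.6 was 2.88 times as high (exact 95% interval 2.29 to 3.62), which ranked 3 from the top of 576 genes with at least 20 counts in the 2 libraries. RP11-596C23.6 was 1.78 times as high (1.69 to 1.87, rank 23), and RN7SL1 2.07 times (1.98 to 2.17, rank 11). In raw counts, 15 of the 576 genes had more in IP 2 than in the deeper IP 1, RP11-160E2.6 and RN7SL1 among them. Input 1 over Input 2, the share of RP11-596C23.6 was 1.56 times as high (1.51 to 1.61), close to RN7SL1 at 1.54 (1.50 to 1.59). RP11-160E2.6 was level between the Inputs at 1.03 (0.811 to 1.31). MALAT1 and NEAT1 were at 0.800 (0.626 to 1.02) and 1.03 (0.807 to 1.32) between IP 2 and IP 1. These intervals compare libraries, not conditions.

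The share of the whole lncRNA class is given with and without the pair, as a description, since leaving out rows chosen for being higher in IP lowers the IP share by construction. All lncRNA rows together came to 12.7% of IP 1 and 16.9% of IP 2, against 11.0% of Input 1 and 8.65% of Input 2. With RP11-596C23.6 and RP11-160E2.6 left out, the other 3084 rows came to 7.40% of IP 1 and 7.11% of IP 2, against 8.54% of Input 1 and 7.07% of Input 2, and the groups overlapped. RP11-596C23.6 alone made up 40.1% and 53.9% of lncRNA counts in IP, against 22.0% and 17.9% in Input. RP11-160E2.6 made up 1.81% and 3.93% in IP, against 0.335% and 0.414% in Input.

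**Figure D4:**
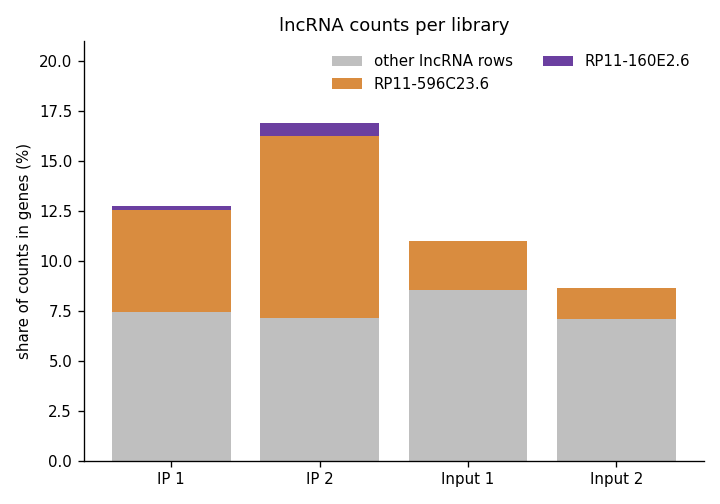
Share of counts in genes (%) held by lncRNA rows in each library, stacked as the other 3084 lncRNA rows (grey), RP11-596C23.6 (orange) and RP11-160E2.6 (purple). The coloured parts are larger in IP 1 and IP 2 than in the Inputs, while the grey part is 7.40% and 7.11% in IP and 8.54% and 7.07% in Input.

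Of the 3084 lncRNA rows other than the pair, 86 had enough counts to be tested, and of these 7 were higher in IP and 0 lower (edgeR's quasi-likelihood test, Benjamini-Hochberg adjusted p under 0.05). Over all genes tested, 2.70% were called higher and 1.36% lower. At an unadjusted p under 0.05, 16 of the 86 were higher and 2 lower. DESeq2 gave an adjusted p for 37 of them and called 0 higher and 0 lower, against 35 higher and 3 lower of 1819 genes. By DESeq2, 10 of the 37 were higher and 1 lower at an unadjusted p under 0.05. The count over all genes at the unadjusted threshold is not given, so nothing is read from the unadjusted counts. With edgeR, the median log2 fold change was 0.13 over the 86 and 0.65 over the 33 with clone names, against -0.06 over all genes. These medians depended on the filter, so nothing is read from them for the class. With at least 50 counts in 2 libraries they were 0.20 over 21 and 0.13 over the 6 with clone names, against 0.005 over all genes. Without a filter they were -1.70 over 3084 and -1.70 over the 1947 with clone names, against -1.23 over all genes. The 7 were the clone-named AC005785.2, AC009133.15, RP11-197N18.2 and CH507-513H4.5, and WDFY3-AS2, RNU11, the U11 small nuclear RNA gene, and SNHG1, a host of small nucleolar RNAs. The filter asks for a minimum CPM in any 2 libraries, so a scarce row can enter through IP alone. AC005785.2, AC009133.15 and WDFY3-AS2 fell short of it in both Inputs, and RNU11 in Input 2. They entered through IP, where they are high, so nothing is read from their calls among the 7. Without IP 1, 2 of these 7 were called, without IP 2, 4 of 7, without Input 1, 2 of the 6 still tested, and without Input 2, 0 of 6. With library totals 1 of the 7 was called. With the totals behind FPKM, 0 of the 86 were called higher and 42 lower, against 17 higher and 2098 lower of all 3668 genes tested.

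Other abundant clone-named lncRNAs are given for scale; since the pair was chosen for its IP enrichment, nothing is read from how their folds compare with it. The 5 others with the highest total counts were 4 rows of clone CH507-513H4 on chromosome 21, each with more counts in all (1069 to 13429) than RP11-160E2.6 (633), and RP5-934G17.7 (171). CH507-513H4.4, the most counted of them, had 705 and 274 counts in IP, against 5822 and 6628 in Input. Its share was 1.09 ± 0.26% in IP and 1.56 ± 0.40% in Input (SD, n = 2 each). CH507-513H4.3, with 543 and 353 counts in IP, against 4255 and 4883 in Input, had shares of 1.07 ± 0.13% in IP and 1.14 ± 0.28% in Input. Log2 fold changes of the 5 ran from -0.67 in RP5-934G17.7 to 0.88 in CH507-513H4.5.

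The fixed lists around the pair differed. Of 62 rows named RN7SL, 5 were tested and all 5 were higher in IP (edgeR adjusted p under 0.05), against 2.70% of all genes tested. Their median log2 fold change was 2.22, beside 2.08 for RP11-596C23.6. With DESeq2 or a replicate block 4 of the 5 were called. At a minimum of 50 counts in 2 libraries 4 were tested and all 4 called. Whether the remaining row passed the default filter in Input is not given. Without Input 2, 2 of these 5 were called, and with the totals behind FPKM 0. Of the 5 U3 rows, 4 were tested and 2 were higher, with a median of 0.60. With DESeq2 1 of these 4 was called, and with a replicate block 0. Of 28 lncRNA hosts of small nucleolar RNAs, 9 were tested, 1 was higher (SNHG1) and the median was -0.13. With library totals, totals behind FPKM, DESeq2, no filter or either log2 FPKM scale, 0 of these hosts were called higher. With upper quartile scaling, TMM over protein-coding nuclear genes, at least 50 counts in 2 libraries or a replicate block, 1 was. The nuclear lncRNAs MALAT1 (log2 fold change 0.00 ± 0.20 SE) and NEAT1 (0.05 ± 0.20) did not pass, at edgeR adjusted p = 0.996 and 0.960. KCNQ1OT1, the other tested row of the nuclear list, was lower in IP at -1.61 ± 0.57, with no count in IP 2. It did not pass either, at edgeR adjusted p = 0.122. MALAT1 held 0.411% and 0.329% of counts in IP, against 0.430% and 0.437% in Input.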

How the data were processed

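The authors deposited raw read counts per gene and FPKM values of the same genes (per kilobase and per 1e+06 of a library total that the labels do not define), 1 column per library. Per the submitters' processing notes, HISAT2, HOMER and hg38 were used, in roles not stated; for the counter, the strand setting and multi-mapped reads the sources used here say nothing. Libraries of a group differed beyond counting noise: chi-square per degree of freedom was 4.33 in IP (576 genes) and 1.72 in Input (6053 genes). Counts were fitted over the whole table with edgeR 4.0.16 (filterByExpr, TMM, group as the one term, quasi-likelihood test, Benjamini-Hochberg at 0.05). Normalised CPM refer to the counts of tested genes. Alternatives used DESeq2 1.42.0, limma 3.58.1 on log2(FPKM + 1) or log2(FPKM + 0.1), other scalings and filters, and fits without each library. The total behind FPKM, in units of 1e+06 0.758, 0.501, 2.12 and 2.55 in IP 1, IP 2, Input 1 and Input 2, came from 23 genes with at least 100 counts in each library. The edgeR step was tested on simulated data. P-values measure only the spread between these libraries. The genes named were the pair, the comparators, the 5 other clone-named lncRNAs with the most counts, the 5 genes most like each, and lncRNAs called higher. KCNQ1OT1 was named from the list of nuclear lncRNAs. Members, lists and rules were chosen with earlier results of these data known.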

Additional observations from a re-analysis of the deposited data

How the results depend on the processing

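The 14 alternatives refit the data in which the pair was chosen as higher in IP, so nothing is read from a sign. The log2 fold changes of RP11-596C23.6 and RP11-160E2.6 stayed positive in all 14. They moved by more than the spread between libraries in 3, with totals behind FPKM (0.45 and 2.14), on log2(FPKM + 1) (0.43 and 2.03) and on log2(FPKM + 0.1) (0.43 and 2.04); the median of all tested genes moved too, so that relative to it the first of these gave 2.10 and 3.79. Without 1 library in turn they ran from 1.43 to 2.55 and from 2.75 to 4.27, the lowest without IP 2 in both. With a replicate block they were 2.05 and 3.70, with SE of 0.65 and 0.30, against 0.34 and 0.28 without it. Whether same-numbered IP and Input libraries share a lysate is not stated. Deviations of same-numbered libraries correlated at -0.042 over 114 genes, which cannot decide it. The block gave 6 called lncRNAs. Ratios of shares ran from 2.36 to 4.59 for RP11-596C23.6 and from 6.35 to 18.3 for RP11-160E2.6, the last 2 without IP 2 and without IP 1. The ratio of RP11-596C23.6 to RN7SL1 and RN7SL3 counts was 0.963 in IP over Input and 0.921 to 1.01 without 1 library. RN7SL2 was meant to be part of that sum, but had no row under its symbol among the genes counted. The ratio of RP11-160E2.6 to SNORD3A ran from 3.36 to 7.14 and that between the pair from 0.252 to 0.415. Counting the pair, which was chosen in this contrast, the 9 called lncRNAs became 3 with library totals, 43 (1 higher, 42 lower) with totals behind FPKM, 2 with DESeq2, 5 at a minimum of 50 counts in 2 libraries, and 1 to 6 without 1 library, where 28 to 198 lncRNAs were tested. The cause of these moves was not tested. Over all 3668 genes tested, totals behind FPKM gave 17 called higher and 2098 lower. Depth limits the IP side most, with a median of 8 IP counts in tested genes.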
